A study of Rattus norvegicus with 8 samples.

Results

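Transcripts of 10 genes of the amino acid and stress response and of the brakes on the kinase mTOR were followed in rat liver: Eif4ebp3, Eif4ebp1, Sesn2, Ddit4, Trib3, Ddit3, Atf3, Atf4, Asns and Psat1. They were chosen by symbol, with earlier results of these data known. Every probe set whose only annotated symbol was among the 10 was taken. This gave 13 probe sets of 31042 tested and 10 genes of 14217 named. Sesn2 had 2 probe sets, Trib3 had 3, and each of the other 8 genes had 1. The livers came from male Sprague-Dawley rats of 180 to 200 g. All animals received an injection into the peritoneum (AICAR at 0.7 g/kg or physiologic saline) and another into muscle (dexamethasone at 1.5 mg/kg or normal saline), and livers were taken 8 h later. The 4 groups were therefore vehicle, dexamethasone, AICAR, and dexamethasone with AICAR, here called the combination. Dexamethasone is a synthetic glucocorticoid, and AICAR is a nucleoside that cells convert into an AMP analogue which activates the energy-sensing kinase AMPK. The design asks whether AMPK activation alters what the glucocorticoid does. Each group held 2 arrays, and the labels do not say whether these came from separate animals. A p-value here weighs a difference against array-to-array spread alone, and that spread may be technical.

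When amino acids run short or unfolded protein builds up, kinases phosphorylate the translation initiation factor eIF2, general translation slows, and the mRNA of the transcription factor ATF4 is translated more. ATF4 acts with partners at C/EBP-ATF response elements (CAREs) and switches on genes for amino acid synthesis (Asns, Psat1), further transcription factors (Atf3, Ddit3) and feedback regulators (Trib3, Sesn2). The kinase complex mTORC1 drives cap-dependent translation, and the 4E-BP proteins (Eif4ebp1, Eif4ebp3) hold the cap-binding protein eIF4E back until mTORC1 phosphorylates them. Sestrin 2 (Sesn2) and REDD1 (Ddit4) restrain mTORC1 from upstream. Glucocorticoids and AMPK are both known to restrain mTORC1, and in liver glucocorticoids also turn amino acids towards glucose production. Control of ATF4 is largely by translation and that of 4E-BP1 (Eif4ebp1) largely by phosphorylation. Arrays of mRNA measure neither translation nor phosphorylation.

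The 250 bases before the annotated start are shown for the 3 members whose levels changed most with dexamethasone, Eif4ebp3, Trib3 and Sesn2. They come from RefSeq's GRCr8 assembly, which was used for sequence alone. Capitals mark the only match among the motifs searched, and each run reads 5′ to 3′ on the gene's own strand. The Eif4ebp3 stretch lies on the plus strand at chr18:28540074-28540323, the Trib3 stretch on the minus strand at chr3:161275534-161275783, and the Sesn2 stretch on the minus strand at chr5:150005256-150005505.
Eif4ebp3: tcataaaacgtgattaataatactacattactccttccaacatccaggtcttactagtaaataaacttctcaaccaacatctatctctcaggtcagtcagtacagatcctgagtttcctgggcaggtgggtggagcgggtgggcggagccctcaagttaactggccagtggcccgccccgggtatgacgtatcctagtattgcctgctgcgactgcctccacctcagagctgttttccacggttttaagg
Trib3: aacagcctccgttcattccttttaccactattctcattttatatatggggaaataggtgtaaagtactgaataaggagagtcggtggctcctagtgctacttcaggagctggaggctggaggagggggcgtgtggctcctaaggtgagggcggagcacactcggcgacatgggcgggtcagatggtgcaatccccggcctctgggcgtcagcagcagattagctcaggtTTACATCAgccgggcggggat
Sesn2: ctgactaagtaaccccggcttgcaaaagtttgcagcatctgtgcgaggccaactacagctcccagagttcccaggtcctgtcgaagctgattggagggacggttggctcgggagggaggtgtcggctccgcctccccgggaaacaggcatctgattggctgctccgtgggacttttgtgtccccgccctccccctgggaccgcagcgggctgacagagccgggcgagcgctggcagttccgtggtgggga
The table of promoters (250 bases before to 50 after the start) held 8 of the 10 genes. Atf3 and Eif4ebp1 were not in it. The CARE core TGATGNAA, searched on both strands, was in 3.98% of 33469 promoters and in 1 of the 8, Trib3, where TTACATCA (the core on the opposite strand) began at position -21. The cAMP response element TGACGTCA (1.83% of promoters), the glucocorticoid response element (GNACA and TGTNC set 3 bases apart, 0.439%) and the ER stress element (CCAAT and CCACG set 9 bases apart, 0.0657%), searched alike, were in none of the 8. The Trib3 match overlaps no other motif searched, and the counts describe letters in a short window only.

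Values are deposited log2 signals, tested with limma over all 8 arrays, and a gene counts as called at a Benjamini-Hochberg adjusted p under 0.05 over all probe sets. Hepatocyte markers were high on all arrays, with a mean log2 level over 7 measured of 8 listed between 13.6 and 13.7. Of these 7, dexamethasone raised 1, AICAR lowered 1, and the combination raised 2 and lowered 1 against vehicle. Of all named genes, 22.7%, 15.2% and 34.4% were called in these 3 comparisons. Array medians lay between 5.22 and 5.27, and the 2 arrays of a group correlated at 0.997 to 0.998. Markers of other cells moved with the groups. The mean level of 10 measured of 11 Kupffer cell and macrophage markers was 8.48 to 8.49 in vehicle, 7.30 to 7.45 with dexamethasone, 8.65 to 8.66 with AICAR and 4.14 to 4.19 in the combination. The combination lowered all 10 of them against vehicle. The 9 measured of 10 lymphocyte markers averaged 5.16 to 5.21 in vehicle and 4.57 to 4.60 in the combination, and 7 of them fell. Dexamethasone alone lowered 9 of the 10 macrophage, 4 of 9 lymphocyte, 3 of 5 endothelial, 2 of 5 neutrophil, 2 of 6 stellate and 3 of 3 red cell markers, and raised 1 of 6 stellate markers. AICAR alone raised 3 of 10 macrophage, 3 of 5 neutrophil, 4 of 6 stellate and 1 of 3 cholangiocyte markers, and lowered 1 macrophage, 2 lymphocyte, 1 endothelial, 1 cholangiocyte and 1 red cell marker. Of the other markers, the combination raised 3 of 5 of neutrophils, lowered 3 of 5 of endothelium and 2 of 3 of red cells, and raised 2 and lowered 2 of 6 of stellate cells, while 3 of cholangiocytes lay between -0.25 and 0.088. The gap between 3′ and 5′ actin probe sets, a measure of RNA quality, was 2.23 ± 0.041 (SD, n = 2) in vehicle, 2.04 ± 0.0074 with dexamethasone, 1.82 ± 0.033 with AICAR and 1.80 ± 0.042 in the combination. The part of cell makeup and RNA quality in the results on the 10 genes was not tested. In whole liver, fewer cells of a type and less RNA per cell cannot be told apart.

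Eif4ebp3, which encodes the cap-binding inhibitor 4E-BP3, changed more than any other of the 10 genes. Its log2 level was 8.34 and 8.36 in the vehicle arrays, 11.77 and 11.84 with dexamethasone, 8.25 and 8.32 with AICAR, and 11.38 and 11.33 in the combination. All 4 arrays with dexamethasone lay far above all 4 without it. Dexamethasone raised it by 3.46 ± 0.072 on the log2 scale (SE, n = 2 against 2), which is 11.0-fold (limma adjusted p = 7.46e-08) and ranked 10 by size of change among 14217 genes. AICAR alone left a difference of -0.065 with a 95% interval of -0.23 to 0.099 (limma adjusted p = 0.613). In the combination Eif4ebp3 was 8.05-fold above vehicle and 8.42-fold above AICAR, and it was lower than with dexamethasone alone by 0.45 on the log2 scale (limma adjusted p = 0.00267). The rise after dexamethasone and the level in the combination were called without any 1 of the 8 arrays.

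**Figure D1:**
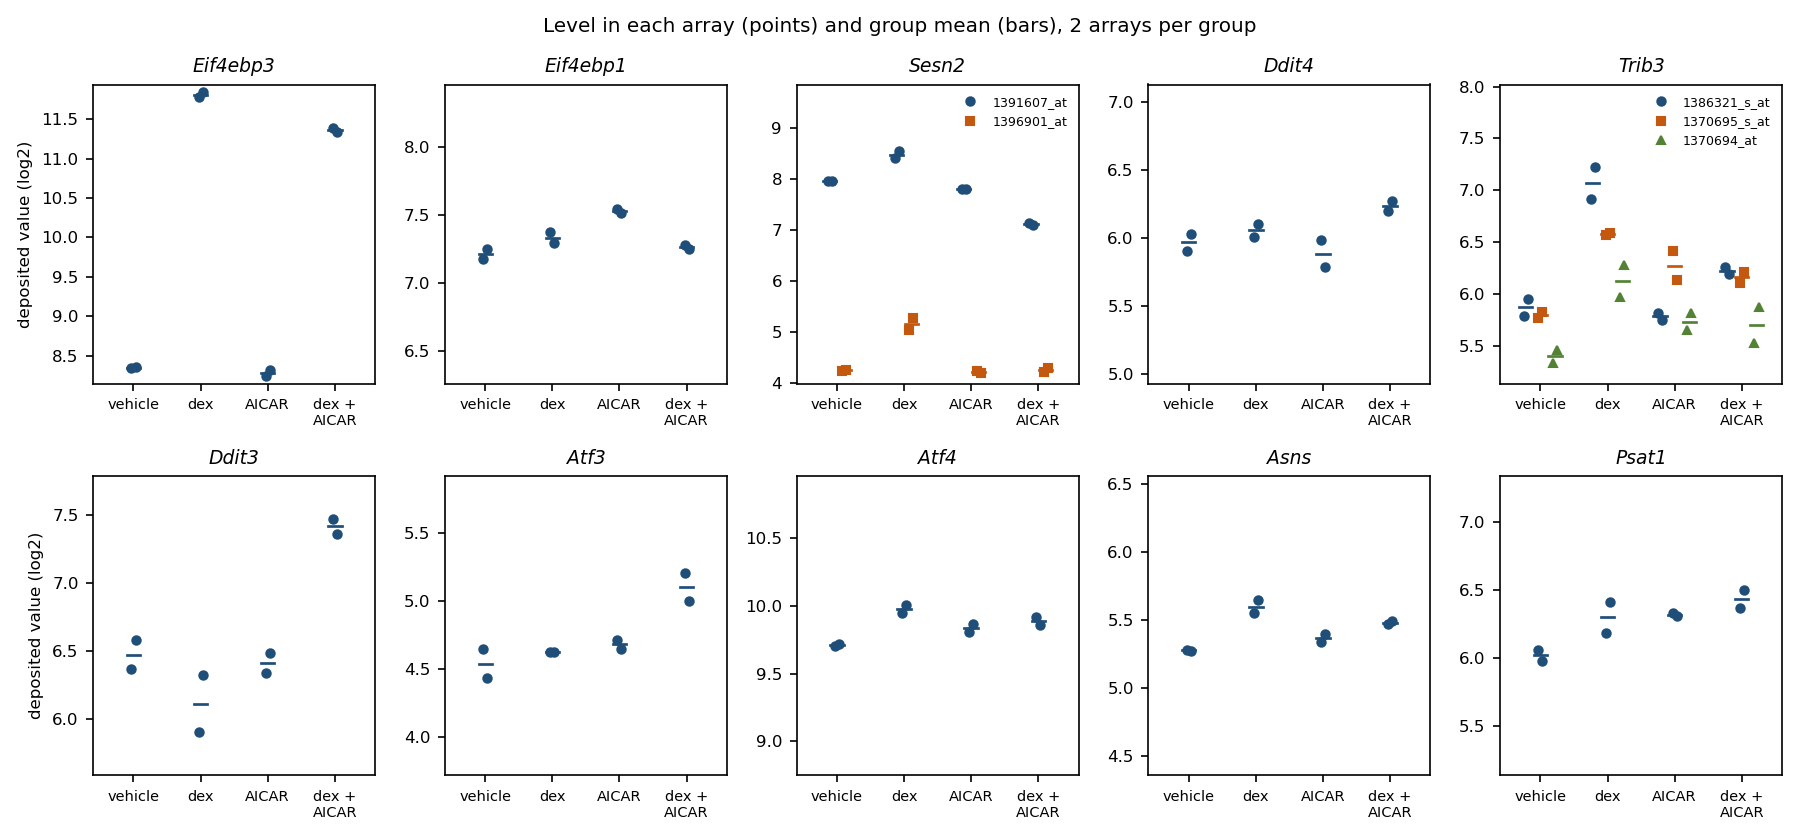
Deposited log2 level of the 10 genes in each array (points) with group means (bars), 2 arrays per group; genes with several probe sets show each in its own symbol, and the panels have different vertical ranges. The dexamethasone and combination arrays of Eif4ebp3 sit between 11.33 and 11.84, above the other 4 arrays at 8.25 to 8.36.

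Eif4ebp1, which encodes 4E-BP1, had a different pattern. The arrays read 7.18 and 7.25 in vehicle, 7.38 and 7.29 with dexamethasone, 7.55 and 7.52 with AICAR, and 7.28 and 7.25 in the combination. The AICAR arrays were the highest and did not overlap with any other group. AICAR raised Eif4ebp1 by 0.32 ± 0.073 (SE), or 1.25-fold (limma adjusted p = 0.0247). This call was lost without either vehicle array or either AICAR array, with adjusted p from 0.0673 to 0.126. Dexamethasone gave a difference of 0.12 with a 95% interval of -0.043 to 0.29 (limma adjusted p = 0.306). The combination lay below AICAR by 0.26 on the log2 scale (limma adjusted p = 0.0236), and this call was lost without any 1 array of those 2 groups (0.0747 to 0.117). The relative Eif4ebp2, from the list of cap-dependent translation genes, rose with dexamethasone by 0.40 ± 0.084 (limma adjusted p = 0.0104) and in the combination by 0.67 ± 0.084 (limma adjusted p = 4.37e-04).

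Sesn2, which encodes a stress-induced leucine sensor that restrains mTORC1, rose with dexamethasone alone and was lowest in the combination by its brighter probe set. On that probe set (1391607_at) the log2 level was 7.96 and 7.97 in vehicle, 8.41 and 8.56 with dexamethasone, 7.80 and 7.81 with AICAR, and 7.13 and 7.10 in the combination. No groups overlapped. Dexamethasone raised Sesn2 by 0.52 ± 0.077 (SE), or 1.43-fold (limma adjusted p = 0.00184), while AICAR gave -0.16 (limma adjusted p = 0.213). The combination was 1.80-fold below vehicle (limma adjusted p = 7.06e-05), 1.61-fold below AICAR (2.14e-04) and 2.58-fold below dexamethasone (8.48e-06).

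The dimmer Sesn2 probe set (1396901_at) read 4.24 and 4.25 in vehicle, 5.05 and 5.27 with dexamethasone, 4.24 and 4.19 with AICAR, and 4.22 and 4.29 in the combination. Here only the dexamethasone arrays stood apart, by 0.91 ± 0.089 against vehicle (limma adjusted p = 1.81e-04). The combination differed from vehicle by 0.010 with a 95% interval of -0.19 to 0.21 (limma adjusted p = 0.951). Both probe sets were lower in the combination than with dexamethasone alone, and they disagreed on the combination against vehicle and against AICAR. Averaged over both probe sets, the difference of the combination was -0.42 against vehicle and -0.32 against AICAR.

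Ddit4, whose product REDD1 restrains mTORC1 in hypoxia and after glucocorticoids in several tissues, moved little. On the log2 scale it read 5.90 and 6.03 in vehicle, 6.0 and 6.10 with dexamethasone, 5.98 and 5.79 with AICAR, and 6.20 and 6.27 in the combination. The combination arrays were the highest, and dexamethasone and AICAR each overlapped vehicle. Dexamethasone gave 0.087 with a 95% interval of -0.12 to 0.30 (limma adjusted p = 0.594). The combination lay 0.27 above vehicle, which did not pass the test (limma adjusted p = 0.0651, and 0.0390 to 0.0473 with gene means, centring or a filter on dim probe sets), and 0.35 above AICAR, which did (0.0200). The call against AICAR was lost without AICAR replicate 2 (0.128) and without either combination array (0.0590 and 0.109).

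Trib3, a pseudokinase that ATF4 induces and that feeds back on ATF4 and on AKT, rose with dexamethasone by all 3 of its probe sets. On the brightest (1386321_s_at) the log2 level was 5.79 and 5.95 in vehicle, 6.92 and 7.22 with dexamethasone, 5.82 and 5.75 with AICAR, and 6.26 and 6.19 in the combination. The dexamethasone arrays were highest, the combination arrays came next, and vehicle and AICAR overlapped. Dexamethasone raised this probe set by 1.20 ± 0.11 (SE), or 2.30-fold (limma adjusted p = 1.23e-04). On this probe set the combination was 1.79-fold below dexamethasone alone (limma adjusted p = 8.56e-04). It was above vehicle by 0.36 (limma adjusted p = 0.0408), a call that was lost without any 1 vehicle, AICAR or combination array. It was also above AICAR by 0.44 (limma adjusted p = 0.0144), a call lost without AICAR replicate 2 (0.0738) or combination replicate 1 (0.0827).

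On the probe set 1370695_s_at, Trib3 read 5.76 and 5.82 in vehicle, 6.56 and 6.59 with dexamethasone, 6.41 and 6.13 with AICAR, and 6.10 and 6.21 in the combination. On 1370694_at it read 5.33 and 5.46 in vehicle, 5.97 and 6.27 with dexamethasone, 5.65 and 5.81 with AICAR, and 5.53 and 5.87 in the combination. Dexamethasone raised these by 0.78 ± 0.10 (limma adjusted p = 9.02e-04) and 0.73 ± 0.14 (limma adjusted p = 0.00670). The combination lay below dexamethasone by 0.42 on both, called on 1370695_s_at (limma adjusted p = 0.0195) and not on 1370694_at (0.0633), against 0.84 on the brightest. The probe sets disagreed on AICAR, with -0.086 on the brightest (limma adjusted p = 0.665), 0.48 on 1370695_s_at (0.0181) and 0.34 on 1370694_at (0.152). They disagreed on the combination against AICAR as well, which averaged over the 3 came to 0.099 (limma adjusted p = 0.415). In the names of 2 of these probe sets, "s" marks probes that match more than 1 transcript in the array's design.

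Ddit3, which encodes the stress transcription factor CHOP, was high in the combination alone. Its log2 level was 6.37 and 6.58 in vehicle, 5.90 and 6.32 with dexamethasone, 6.34 and 6.49 with AICAR, and 7.47 and 7.36 in the combination. The combination arrays lay above all others, and the dexamethasone arrays lay below those of vehicle without overlap. The combination was 1.93-fold above vehicle (0.95 ± 0.14, limma adjusted p = 0.00110), 2.01-fold above AICAR (7.16e-04) and 2.48-fold above dexamethasone (3.03e-04). Dexamethasone alone gave -0.36 ± 0.14, which did not pass the test (limma adjusted p = 0.114). Without dexamethasone replicate 2 it came to -0.57 and did (0.0236), as it did with a trended prior (0.0296).

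Atf3, an immediate-early stress repressor, was likewise highest in the combination. Log2 levels were 4.65 and 4.43 in vehicle, 4.62 and 4.62 with dexamethasone, 4.71 and 4.65 with AICAR, and 5.21 and 5.00 in the combination. The first 3 groups overlapped or nearly touched, and the combination arrays were above them all. The combination was 1.48-fold above vehicle (0.57 ± 0.10, limma adjusted p = 0.00300), with 0.42 above AICAR (0.0119) and 0.48 above dexamethasone (0.00951). The call against AICAR was lost without AICAR replicate 2 (0.0656), and both this call (0.0927) and that against dexamethasone (0.0777) were lost without combination replicate 1. Macrophages also express Atf3, and the macrophage markers fell in the same arrays in which Atf3 rose. The part of cell makeup in this rise was not tested.

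Atf4 itself changed little in mRNA. On the log2 scale it read 9.70 and 9.72 in vehicle, 9.94 and 10.00 with dexamethasone, 9.81 and 9.87 with AICAR, and 9.92 and 9.85 in the combination. The dexamethasone arrays were the highest and the vehicle arrays the lowest. The rise with dexamethasone was 0.26 ± 0.072 (SE), or 1.20-fold (limma adjusted p = 0.0346), and it was lost without any 1 of the 8 arrays (0.0520 to 0.127). AICAR gave 0.13 (limma adjusted p = 0.293) and the combination 0.17 (0.112, or 0.00833 with a trended prior) against vehicle.

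Asns, asparagine synthetase and a classic ATF4 target, rose slightly with dexamethasone. Its log2 level was 5.28 and 5.28 in vehicle, 5.56 and 5.64 with dexamethasone, 5.34 and 5.40 with AICAR, and 5.47 and 5.50 in the combination. The 4 groups did not overlap. Dexamethasone raised it by 0.32 ± 0.072, or 1.25-fold (limma adjusted p = 0.0151). The call was lost without vehicle replicate 1 (0.0611), vehicle replicate 2 (0.0696) or dexamethasone replicate 2 (0.0738). The combination gave 0.20 against vehicle (limma adjusted p = 0.0703, and 0.0295 to 0.0439 with gene means, centring or a filter on dim probe sets).

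Psat1, the aminotransferase in the middle step of serine synthesis, read 6.06 and 5.98 in vehicle, 6.19 and 6.41 with dexamethasone, 6.33 and 6.31 with AICAR, and 6.37 and 6.50 in the combination. The vehicle arrays were the lowest, and the dexamethasone arrays spanned those of AICAR and overlapped the combination. The combination raised it by 0.41 ± 0.094, or 1.33-fold (limma adjusted p = 0.0111), a call lost without vehicle replicate 2 (0.0676) or combination replicate 2 (0.0829). Dexamethasone gave 0.28 (limma adjusted p = 0.0760) and AICAR 0.30 (0.0747). Both passed the test with a trended prior (0.0498 and 0.0420), and the former did without dexamethasone replicate 1 (0.0370). The enzymes of the steps before and after it, Phgdh and Psph, were looked up after the values of Psat1 were seen. Phgdh rose by 0.93 ± 0.10 with dexamethasone (limma adjusted p = 3.98e-04), 0.58 with AICAR (0.00935) and 0.73 in the combination (9.37e-04). Psph rose in the combination by 0.80 ± 0.11 (limma adjusted p = 5.98e-04), with 0.28 after dexamethasone (0.112) and -0.11 after AICAR (0.571).

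Counts over the 10 genes use the brightest probe set of each. Dexamethasone raised 5 (Eif4ebp3, Trib3, Sesn2, Asns and Atf4) and lowered none. Of all named genes, 8.37% rose and 14.3% fell after dexamethasone (22.7% in either direction). Without either vehicle array the count was 3, with Asns and Atf4 lost. AICAR raised 1, Eif4ebp1, where 6.22% of all named genes rose and 8.96% fell (15.2% in either direction), so the share called is near the background. Without either vehicle array or either AICAR array the limma count was 0, while 1 to 2 of the 10 had an unadjusted p under 0.05. The combination raised 5 against vehicle (Eif4ebp3, Ddit3, Atf3, Psat1 and Trib3) and lowered Sesn2, against a background of 15.9% higher and 18.4% lower (34.4% in either direction). Against AICAR, the combination raised 5 (Eif4ebp3, Ddit3, Trib3, Atf3 and Ddit4) and lowered 2 (Sesn2 and Eif4ebp1), where 18.7% of genes rose and 19.4% fell (38.2% in either direction). That count of 7 became 3 without AICAR replicate 2 or without combination replicate 1. Against dexamethasone, the combination raised 2 (Ddit3 and Atf3) and lowered 3 (Sesn2, Trib3 and Eif4ebp3), where 14% of genes rose and 11.3% fell (25.4% in either direction). The median difference of the 10 genes was 0.27 after dexamethasone, 0.016 after AICAR and 0.31 in the combination, and that of all genes was -0.030, 0.0010 and -0.0059. The 3 comparisons with vehicle share the vehicle arrays. The 10 genes were chosen with earlier results of these data known, so their counts beside the background are a description only. On the other probe sets of Trib3 and Sesn2 the combination was not called against AICAR. On the dimmer Sesn2 probe set it was not called against vehicle either, nor on 1370694_at of Trib3 (0.30, limma adjusted p = 0.149). On 1370695_s_at of Trib3 the combination was called higher than vehicle (0.37, limma adjusted p = 0.0269).

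**Figure D2:**
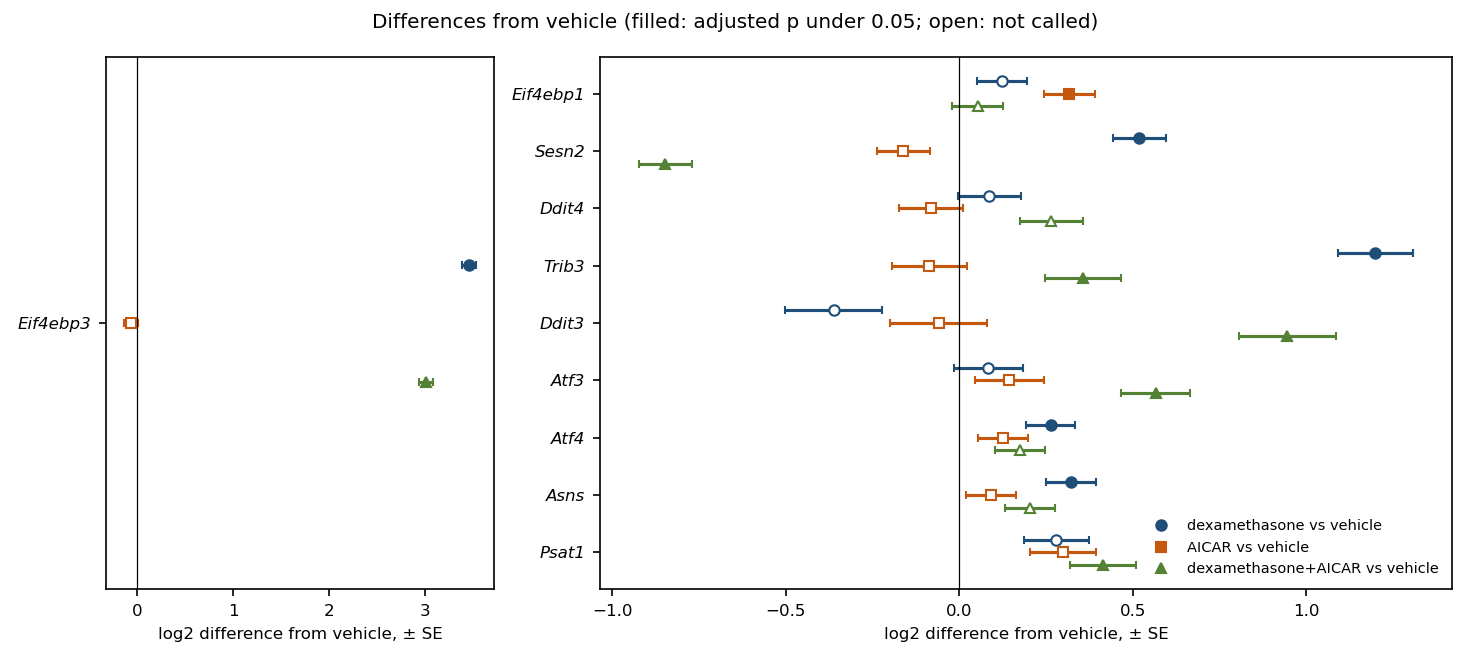
Log2 difference from vehicle of the 10 genes (brightest probe set, ± SE of the limma fit, 2 arrays per group) after dexamethasone, AICAR and both, with filled symbols for adjusted p under 0.05; Eif4ebp3 has its own axis. Sesn2 lies at 0.52 after dexamethasone and at -0.85 in the combination, and Ddit3 lies at -0.36 and 0.95.

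The effect of dexamethasone in the presence of AICAR was set against that in its absence by the interaction term, which was called for 5 of the 10 genes, 1 higher and 4 lower, where 11.9% of all named genes were called higher and 8.05% lower (20% in either direction). Ddit3 had the only positive call, 1.37 ± 0.20 (SE, limma adjusted p = 0.00241), from -0.36 without AICAR to 1.00 with it. For Sesn2 the term was -1.21 ± 0.11 (limma adjusted p = 2.14e-04), from a rise of 0.52 to a fall of 0.69, and on the dimmer probe set it was -0.87 ± 0.13 (0.00243). For Trib3 it was -0.76 ± 0.15 (limma adjusted p = 0.0122) on the brightest probe set, and -0.90 (0.00400) and -0.76 (0.0317) on the other two. These 3 genes were called without any 1 of the 8 arrays. For Eif4ebp3 the term was -0.38 ± 0.10 (limma adjusted p = 0.0363), small beside rises of 3.46 and 3.07, and it was lost without any 1 array (0.0516 to 0.118). For Eif4ebp1 it was -0.39 ± 0.10 (limma adjusted p = 0.0365) and was lost without any 1 array except dexamethasone replicate 2. Leaving out any 1 array but that one gave a count of 3. Atf3 (0.34, limma adjusted p = 0.152), Ddit4 (0.26, 0.227), Psat1 (-0.16, 0.468), Asns (-0.21, 0.215) and Atf4 (-0.21, 0.203) did not pass the test, though Atf4 did with a trended prior (0.030) or after cyclic loess (-0.33, 0.0478). The interaction was also called for all 10 macrophage markers, all lower.

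**Figure D3:**
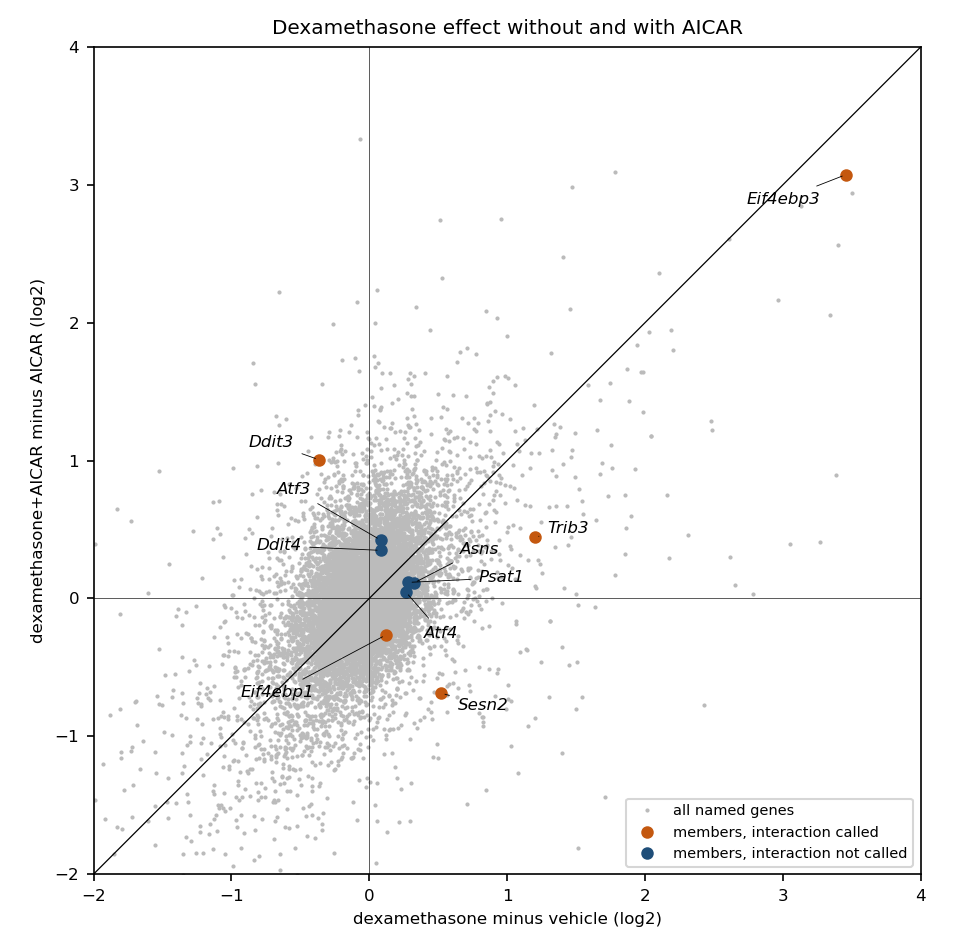
Dexamethasone minus vehicle (horizontal axis) against combination minus AICAR (vertical axis), both log2, for 14217 named genes; the diagonal marks equal effects, the 2 axes share no arrays, and 109 genes lie outside the drawn range of -2 to 4. Ddit3 lies at -0.36 and 1.00, Sesn2 at 0.52 and -0.69, Trib3 at 1.20 and 0.44, and Eif4ebp3 at 3.46 and 3.07.

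The 4 genes whose group means spanned at least 1 on the log2 scale were set beside the other 1095 genes of that span, by Pearson correlation over the 8 arrays. These arrays fall into 4 groups, so the correlations describe group patterns. Eif4ebp3 was most like Usp2, a deubiquitinating enzyme (r = 1.000), then the sulfotransferase Sult1a1 (0.999) and nicotinamide N-methyltransferase, Nnmt (0.997). Group means of Usp2 were 5.47 in vehicle, 8.60 with dexamethasone, 5.43 with AICAR and 8.28 in the combination. By its brighter probe set, Sesn2 was most like the gluconeogenic enzyme Fbp1 (0.995), then Acy3 (0.992) and Phyhd1 (0.991). Group means of Fbp1 were 12.7 in vehicle, 13.2 with dexamethasone, 12.5 with AICAR and 11.9 in the combination. The dimmer Sesn2 probe set did not share the low level in the combination, with means of 4.26 there and 4.25 in vehicle. By its brightest probe set, Trib3 was most like the receptor gene Adcyap1r1 (0.992), Ifi44l (0.987) and the thioesterase Acot13 (0.986). The other Trib3 probe sets differed from it after AICAR. Ddit3 was most like Angptl8, a regulator of lipoprotein lipase (0.993), the lysosomal membrane protein gene Scarb2 (0.983) and Eif4a1, the RNA helicase of the cap-binding complex (0.983).

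Other genes of the amino acid response were measured for 34 of 35 listed. Of these, 10 rose and 5 fell after dexamethasone, 5 rose and 5 fell after AICAR, and 12 rose and 5 fell in the combination. The share called in either direction was 44.1%, 29.4% and 50%, against 22.7%, 15.2% and 34.4% of all named genes. After dexamethasone the smallest p-values were those of the amino acid transporter Slc38a2 (1.49 ± 0.071, limma adjusted p = 3.18e-06), the stress-induced Nupr1 (1.51 ± 0.083, 7.24e-06), the hormone Fgf21 (1.33 ± 0.090, 2.42e-05) and Herpud1, of ER-associated degradation (1.34 ± 0.095, 3.02e-05). Fgf21 fell with AICAR by 0.60 (limma adjusted p = 0.00425), and the autophagy receptor gene Sqstm1 rose with it by 0.64 (1.00e-03). In the combination Cth, which makes cysteine, fell by 1.62 ± 0.067 (limma adjusted p = 7.23e-07), Herpud1 rose by 1.56, Slc38a2 by 0.91 and the growth-arrest gene Gadd45a by 0.99. Of the 34, the interaction was called higher in 5 and lower in 10, against 11.9% and 8.05% of all named genes. By smallest p-value it was -1.97 for Nupr1 (limma adjusted p = 2.24e-05), -1.61 for Cth (2.15e-05) and -1.34 for Sqstm1 (7.47e-05). The list's median was 0.092 after dexamethasone, 0.10 after AICAR and 0.093 in the combination, and its members moved in both directions.

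Cytosolic tRNA synthetases, many of which ATF4 induces, were measured for 19 of 20. None rose after dexamethasone or AICAR alone, where 8.37% and 6.22% of all named genes rose. Of the synthetases 2 and 3 fell, where 14.3% and 8.96% of all named genes fell. Those synthetases included Gars1 (-0.40 with dexamethasone) and Tars1 (-0.36). In the combination 7 rose and 1 fell against vehicle, where 15.9% of all named genes rose and 18.4% fell, led by Hars1 (0.82 ± 0.11, limma adjusted p = 6.21e-04), Wars1 (0.63), Farsb (0.43) and Iars1 (0.55). Their interaction was called higher in 9 and lower in none, where 11.9% of all genes were called higher, with a median of 0.36 against 0.014 for all genes. Genes of eIF2, its exchange factor, kinases and phosphatases gave 2 of 17 higher and 1 lower after dexamethasone, 2 higher and 2 lower after AICAR, and 8 higher and 1 lower in the combination. Of all named genes, 8.37% rose and 14.3% fell after dexamethasone, 6.22% and 8.96% after AICAR, and 15.9% and 18.4% in the combination. Among the eIF2 kinases, Eif2ak2 and Eif2ak3 rose with dexamethasone by 1.13 ± 0.13 and 0.65 ± 0.10 (limma adjusted p = 4.38e-04 and 0.00261). Eif2ak1 (mean 8.99 in vehicle and 8.84 with dexamethasone) and Eif2ak4 (7.09 and 7.21) were not called there. Eif2s1, the subunit that these kinases phosphorylate, rose in the combination by 0.58 ± 0.075 (limma adjusted p = 5.24e-04), with an interaction of 0.93.

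**Figure D4:**
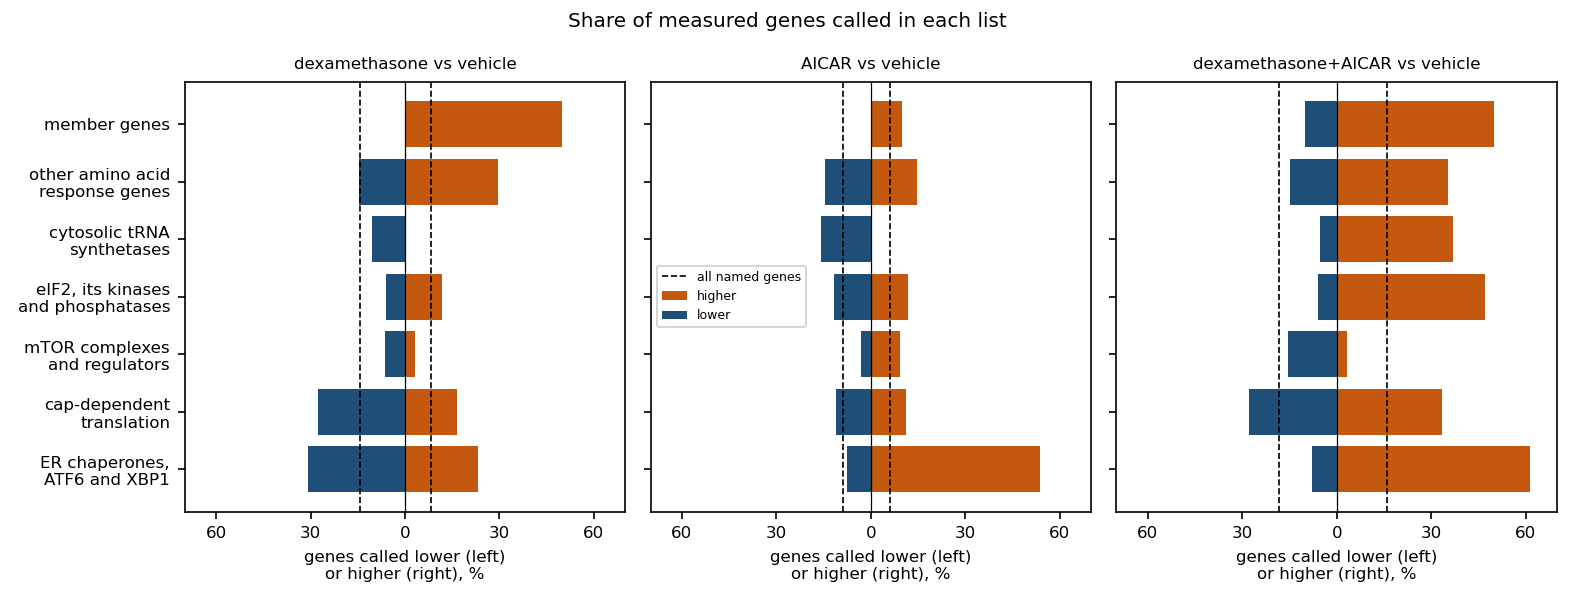
Percent of measured genes called higher (right) and lower (left) against vehicle at adjusted p under 0.05, for the 10 member genes and 6 lists of related genes; dashed lines mark the same share over all 14217 named genes. In the combination 7 of 19 tRNA synthetases and 8 of 13 ER chaperone genes were called higher, and 1 of 32 mTOR regulators was.

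Subunits and regulators of the mTOR complexes (32 of 34 measured) gave 1 higher and 2 lower after dexamethasone, 3 higher and 1 lower after AICAR, and 1 higher and 5 lower in the combination. The share called in either direction was 9.38%, 12.5% and 18.8%, each below the share of all named genes (22.7%, 15.2% and 34.4%). Among the few that were called, Deptor, an inhibitory subunit of both complexes, fell in the combination by 0.78 ± 0.074 (limma adjusted p = 9.09e-05), with an interaction of -0.90. Sesn1, the relative of Sesn2, rose with AICAR by 0.28 (limma adjusted p = 0.0396) and had an interaction of -0.56 (0.00758). The lysosomal adaptor gene Lamtor4 fell with dexamethasone by 0.49 and rose with AICAR by 0.49, and Lamtor3 rose in the combination by 0.57. Genes of cap-dependent translation and mTORC1 outputs (18 of 19 measured) gave 3 higher and 5 lower after dexamethasone, 2 higher and 2 lower after AICAR, and 6 higher and 5 lower in the combination. The share called was 44.4%, 22.2% and 61.1%, against the same shares of all genes. The cap-binding relative Eif4e3 fell after dexamethasone by 0.76 ± 0.10 (limma adjusted p = 0.00102). Eif4a1 rose in the combination by 0.76 ± 0.073 (limma adjusted p = 1.00e-04), and the autophagy kinase Ulk1 fell by 0.63 ± 0.072 (2.55e-04). Of the 18, the interaction was called higher in 3 and lower in 2, against 11.9% and 8.05% of all named genes. Its smallest p-values were those of Eif4a1 (1.19, limma adjusted p = 1.86e-04), Ulk1 (-0.98, 4.74e-04) and the cap-binding protein gene Eif4e (0.79, 0.00132).

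ER chaperones and other targets of ATF6 and XBP1, the parallel arms of the unfolded protein response, were measured for 13 of 14. After AICAR 7 rose and 1 fell, where 6.22% of all named genes rose and 8.96% fell. Those that rose included Hyou1 (0.84 ± 0.073, limma adjusted p = 3.50e-04), Sdf2l1 (0.81), Dnajb11 (0.68) and Calr (0.62). Dexamethasone raised 3, among them Edem1 (1.94 ± 0.083, limma adjusted p = 1.92e-06) and Dnajb9 (1.17), and lowered 4, among them Hyou1 (-0.83) and Sdf2l1 (-0.69). Of all named genes, 8.37% rose and 14.3% fell after dexamethasone. In the combination 8 rose and 1 fell, where 15.9% of all named genes rose and 18.4% fell. Creld2 rose by 1.71 ± 0.068 (limma adjusted p = 5.41e-07) and Hsp90b1 by 1.04. Edem1 rose by 1.91 and Dnajb9 by 1.17, close to their rises with dexamethasone alone. The interaction was called higher in 2, Creld2 (1.85, limma adjusted p = 1.15e-05) and Hspa5 (0.49, 0.0108), and lower in Xbp1 (-0.45, 0.0149). The other 10 were not called, and the list's median interaction was 0.0060 against 0.014 for all genes. The share called for the interaction was 23.1%, near the 20% of all named genes (11.9% higher and 8.05% lower). These lists are a description by counts, and no list was tested against other genes.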

How the data were processed

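The authors deposited log2 values, 1 per probe set and array, and per the submitters' processing notes used affy and RMA; versions are not given in the sources used here. The method corrects background, equalises the arrays' distributions and summarises probes, and it compresses differences of dim probe sets and gives no detection call. The log base is not stated and was read as 2 from the range of the values. Of 31099 probe sets, 57 array controls were left out. Among the 31042 tested, 20826 had 1 gene symbol in the platform annotation, 436 several and 9780 none. A gene with several probe sets is represented by that of highest mean over the arrays. Coordinates in the text belong to the promoter table alone.

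Differences were fitted with limma 3.58.1 in R 4.3.3 (lmFit, eBayes), with 1 coefficient per group over all 8 arrays, 4 residual degrees of freedom (4.58 prior), and p-values adjusted by Benjamini-Hochberg over all tested probe sets. The code was tested on simulated data. With 2 arrays against 2, an exact two-sided permutation test cannot go below 0.333, so none was made. The number of arrays limits the precision. Figures were drawn with matplotlib 3.10.9 in Python 3.11.15.

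The member genes and lists were chosen with earlier results of these data known. Text names every member probe set, and from each list up to 4 called genes with the smallest adjusted p per comparison (3 for the interaction). Phgdh, Psph, Eif2ak1, Eif2ak4 and the genes of the closing observations fall outside this rule. Markers of neutrophils, endothelium, stellate cells, cholangiocytes and red cells were also measured. Alternatives were cyclic loess, a fit limited to the compared groups, a block for replicate number, a trended robust prior, gene means of probe sets, centring on brighter probe sets, a filter on dim ones, and leaving out each array in turn.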

Additional observations from a re-analysis of the deposited data

Results flagged for a closer look

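The effect of dexamethasone differed with and without AICAR by the interaction term of the limma fit for 8 probe sets of 5 member genes. The term, on the log2 scale, was 1.37 for Ddit3. It was -1.21 and -0.87 for the brighter and the dimmer probe set of Sesn2. For Trib3 it was -0.76 on 1386321_s_at, -0.90 on 1370695_s_at and -0.76 on 1370694_at. For Eif4ebp3 it was -0.38 and for Eif4ebp1 -0.39. Eif4ebp3 and Eif4ebp1 sat near the threshold (adjusted p = 0.0363 and 0.0365).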

How the results depend on the processing

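Of 60 member results (10 genes in 6 comparisons), 29 were called; 17 of these were called under every alternative run and 12 were lost under at least 1, while 7 of the 31 not called passed under at least 1. The replicate numbers share only a number: deviations of same-numbered arrays correlated at -0.042 to 0.16 over the 6 pairs of groups. With the replicate number as a block, the interaction was called for 3 members in place of 5, and no other count moved by over 1.5 times. With only the groups compared (not run for the interaction), 3 members in place of 5 were called after dexamethasone and 0 in place of 1 after AICAR, where 2 had an unadjusted p under 0.05. After AICAR, 2 were called with the trended prior, with centring and with gene means. List genes called after AICAR numbered 33, 54 with the trended prior and 20 with only the groups compared. The cause was not tested.

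Leaving out 1 array in turn, where the lone array is taken to vary like the other groups, gave 3 to 5 members called after dexamethasone, 0 to 1 after AICAR, and in the combination 4 to 6 against vehicle, 3 to 7 against AICAR and 4 to 5 against dexamethasone, with 3 to 4 for the interaction. List genes called ranged from 25 to 37 after dexamethasone (38 with all arrays), 14 to 31 after AICAR (33), and in the combination 42 to 61 against vehicle (60), 43 to 61 against AICAR (61) and 33 to 56 against dexamethasone (58), with 27 to 37 for the interaction (41). Small differences that were not called changed sign in 6 cases: Atf4 in the combination against AICAR under cyclic loess (-0.055), Trib3 after AICAR with gene means (0.24), Atf3 after dexamethasone without vehicle replicate 2 (-0.023, and up to 0.19 without vehicle replicate 1), Ddit3 after AICAR without vehicle replicate 2 (0.045) or AICAR replicate 1 (0.015, and down to -0.16 without vehicle replicate 1), and Ddit4 after AICAR without AICAR replicate 2 (0.015, and down to -0.18 without AICAR replicate 1). The lowest lower quartile of the arrays was 3.84, and no member group mean lay below it.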

Other observations

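Relatives and a neighbour of the member genes were looked up after the values were seen. Trib1, a relative of Trib3, rose by 0.48 ± 0.072 with dexamethasone (limma adjusted p = 0.00202), and Trib2 fell by 0.48 ± 0.099 (0.0102), each on its brightest probe set. The other probe sets gave 0.12 and 0.19 for Trib1 and 0.087 for Trib2, none of them called. Sesn3, a relative of Sesn2, gave 0.31 (limma adjusted p = 0.243) on its brighter probe set and -0.33 (0.121) on the other, and Ddit4l, a relative of Ddit4, gave -0.11 (0.371). Sesn1 gave -0.029 (limma adjusted p = 0.833). Ankhd1, which lies next to Eif4ebp3 and with which read-through transcripts are known, read 7.95 and 7.93 in vehicle and 8.06 and 8.23 with dexamethasone. The difference on this brightest Ankhd1 probe set was 0.21 ± 0.086 (limma adjusted p = 0.139), where Eif4ebp3 rose by 3.46. Other Ankhd1 probe sets gave 0.037 (limma adjusted p = 0.845) and 0.070 (0.631). The part of read-through transcripts in the rise of Eif4ebp3 was not tested.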
